A study of Mus musculus with 8 samples.

Results

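Ddx4, Dazl, Dnd1, Elavl2, Lin28a, Lin28b and Ybx2 code for RNA-binding proteins of germ cells, and their signal was read on each array as a gauge of the germ cell content of the RNA. The 7 genes were chosen by name, and every probe whose RefSeq accession maps to one of them was taken, which gave 10 probes of 41174 on the array and 7 genes of 17508 tested. RNA came from cells bearing the surface protein Thy1, isolated from the testes of C57BL/6 mouse pups at postnatal day 4. One group was wild type (WT) and the other Glis3KO2, with 4 samples in each, and no sample received a treatment. Glis3 is a zinc finger transcription factor, and the series asks what its loss does to male germ cell development. The allele behind the name Glis3KO2 and the cells in which it acts are not given in the sources used here. The labels do not say whether the 4 samples of a group are from different pups, and the p-values cover only the variation among samples, part of which may be technical.

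Germ cells hold many of their messenger RNAs back from translation, and proteins that bind the RNA decide when a message is used, stored or destroyed. DDX4, also called VASA or MVH, is a DEAD-box helicase of the germ granule that takes part in piRNA production. DAZL binds U-rich stretches in the untranslated part of messages and promotes their translation, and mice without it lose their germ cells. DND1 works with NANOS2 and the CCR4-NOT deadenylase on the silencing of messages, LIN28A and LIN28B block the maturation of let-7 microRNAs, ELAVL2 binds AU-rich messages, and YBX2, also called MSY2, packages stored messages in meiotic and later germ cells. Ddx4 and Dazl are widely used as markers of the whole germ line, while Lin28a is associated with undifferentiated spermatogonia.

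The stretches just upstream of Ddx4 and Dazl are shown because these are the 2 members compared most closely here. Each is the 250 bases before the RefSeq gene start on GRCm38.p6, written 5′ to 3′ on the gene's own strand. The first lies at chr13:112652311-112652560 and the second at chr17:50293621-50293870, both on the minus strand. Capitals mark matches on either strand to CACGTG (an E-box), GCGGGAA (an E2F-type element) or CCAAT.

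Ddx4: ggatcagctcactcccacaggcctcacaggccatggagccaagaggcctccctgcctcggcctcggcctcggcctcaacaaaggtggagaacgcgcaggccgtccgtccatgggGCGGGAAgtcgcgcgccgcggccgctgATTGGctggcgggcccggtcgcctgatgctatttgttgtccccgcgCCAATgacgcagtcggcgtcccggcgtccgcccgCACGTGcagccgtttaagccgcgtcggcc
Dazl: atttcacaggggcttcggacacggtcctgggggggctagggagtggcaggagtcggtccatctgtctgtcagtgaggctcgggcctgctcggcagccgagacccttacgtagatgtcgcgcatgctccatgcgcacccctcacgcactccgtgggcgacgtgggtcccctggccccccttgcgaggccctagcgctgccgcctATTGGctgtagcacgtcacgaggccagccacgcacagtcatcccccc

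The Ddx4 stretch held 1 E-box, starting 29 bases before the gene start, 1 E2F-type element at 136 bases and 2 CCAAT boxes at 109 and 63 bases. In the Dazl stretch only a CCAAT box was found, at 47 bases. Among 32851 promoter windows of this length, 6.02% held CACGTG, 3.82% held GCGGGAA and 33.9% held CCAAT, and the motifs do not overlap in the stretches shown. Ddx4 had 31 CpG dinucleotides, an observed to expected ratio of 1.0, and Dazl had 20, a ratio of 0.71, against a median ratio of 0.37 over all windows. Promoter windows were read for 6 of the 7 genes. The lookup of members left out a chromosome, and no window of Dnd1 was read. Ybx2, the member with the steadiest signal, also had a CpG-rich first promoter (ratio 1.02), with 2 CCAAT boxes and neither other motif. A match is a description of the letters and not of a bound site.

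Signal is given as log2 of the processed intensity minus the array's 75th percentile, so 0 is the level of the 75th percentile and 1 unit is a doubling. Between 86.0% and 90.3% of spots were well above background. All 10 member probes were well above background on all 8 arrays, and none was saturated. Levels of different probes are not comparable, and in RNA from many cells a lower germ cell share and less RNA per germ cell cannot be told apart. WT replicates 3 and 4 stood apart from the other 6 arrays on the first principal component (69.1 and 60.0, against -55.9 to 3.87), which held 32.3% of the variance, and the main results are therefore also given without them. For Glis3 itself the WT mean was -0.23 ± 0.94 and the Glis3KO2 mean -1.67 ± 0.49 (SD, n = 4 each), and all Glis3KO2 arrays lay below all WT arrays (limma adjusted p = 0.697). Whether its probe lies in the deleted part is not known here. The labels call the cells spermatogonial progenitors, but signal was also read from markers of other cells. All 14 Sertoli, 11 of 12 stroma and 10 of 11 macrophage markers measured were well above background on all 8 arrays. So were 16101 of all 17508 genes. These counts say little about the cells, since a gene was measured only if well above background on 4 or more arrays.

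Ddx4 was read by 1 probe for NM_010029 (A_51_P223569). It read 1.80, 2.22, 3.48 and 4.17 on the log2 scale in WT replicates 1 to 4 and 1.97, 1.84, 2.02 and 2.07 in the Glis3KO2 replicates. WT replicates 3 and 4 were high, WT replicates 1 and 2 lay close to the Glis3KO2 arrays, and the groups overlapped. In intensity units the WT arrays spanned 1235 to 4883 and the Glis3KO2 arrays 1022 to 1638. The WT range was 5.16-fold and the Glis3KO2 range 1.17-fold on the scaled signal, which left Ddx4 with an SD of 1.10 in WT and 0.10 in Glis3KO2. The mean difference was -0.94 (SE 0.47, 95% interval -1.98 to 0.10), a 1.92-fold lower signal in Glis3KO2, and it did not pass (limma adjusted p = 0.697).

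Dazl had 2 probes for NM_010021. The brighter (A_51_P246060) gave log2 values of 3.74, 4.24, 5.45 and 5.90 in WT and 4.39, 3.96, 4.88 and 4.86 in Glis3KO2. As for Ddx4, WT replicates 3 and 4 were highest, and here all Glis3KO2 arrays lay above WT replicate 1. The difference was -0.31 (SE 0.47, 95% interval -1.35 to 0.73; limma adjusted p = 0.860). The other probe (A_52_P271166) read 1.49, 1.98, 2.77 and 3.46 in WT and 1.78, 1.60, 2.63 and 2.09 in Glis3KO2, a difference of -0.40 (SE 0.43). After centring, the 2 Dazl probes differed from each other by at most 0.31 on any array.

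Elavl2 was read by 2 probes for NM_207685. The brighter (A_52_P664899) was at -0.07, 0.47, 1.30 and 2.28 in WT and at 0.70, 0.29, 1.24 and 0.78 in Glis3KO2, with a difference of -0.24 (SE 0.46, 95% interval -1.28 to 0.79; limma adjusted p = 0.897). The other probe (A_51_P134835) differed by -0.46 (SE 0.46), and the probes disagreed by up to 0.55 on 1 array after centring. Elavl2 followed Dazl closely. The root mean square difference between their centred log2 values over the 8 arrays was 0.19, the smallest of the 21 member pairs, against 0.39 for Ddx4 and Dazl.

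Dnd1 (NM_173383, A_51_P285790) departed from this order. Its log2 signal was -1.59, -0.98, -0.90 and 0.29 in WT and -2.24, -1.86, -0.64 and 0.56 in Glis3KO2. The highest value of all came from Glis3KO2 replicate 4 and the lowest from Glis3KO2 replicate 1, a 6.98-fold range within that genotype. The difference was -0.25 (SE 0.61, 95% interval -1.61 to 1.10; limma adjusted p = 0.920).

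The probes of Lin28a and Lin28b were dim. The Lin28a probe (NM_145833, A_52_P294305) had intensities from 15.8 to 141, where the lowest spot well above background on an array was at 8.21 to 12.7. Its log2 signal was -4.49, -2.91, -1.29 and -0.95 in WT and -2.77, -4.18, -3.18 and -4.12 in Glis3KO2. WT replicates 3 and 4 exceeded all Glis3KO2 arrays, while WT replicate 1 was the lowest of the 8. The difference of -1.15 (SE 0.71, 95% interval -2.74 to 0.44) did not pass (limma adjusted p = 0.697), and it was -0.51 with normexp and quantile normalization. Lin28b (NM_001031772) was at -3.09, -3.73, -1.01 and -0.33 in WT and -2.03, -2.40, -2.04 and -1.46 in Glis3KO2 by its brighter probe (A_52_P676861). Here the 2 high and the 2 low WT arrays lay on either side of all Glis3KO2 arrays. The mean difference was 0.06 (SE 0.67, 95% interval -1.44 to 1.56; limma adjusted p = 0.985). By the dimmer probe (A_52_P532355) it was 0.03 (SE 0.61), and the probes disagreed by up to 1.25 on 1 array. With normexp background correction the sign of Lin28b turned, to -0.68 with the 75th percentile and -0.16 with quantile normalization.

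Ybx2 (NM_016875, A_51_P455488) was nearly level. It read 2.42, 2.18, 2.16 and 2.08 in WT and 1.92, 1.93, 2.34 and 2.01 in Glis3KO2, a 1.41-fold range over all arrays. Its SD pooled within groups was 0.17, at the 3.03rd percentile of all genes, whereas the pooled SD of the other 6 members lay between the 86.5th and the 97.7th. The difference was -0.16 (SE 0.21, 95% interval -0.62 to 0.31; limma adjusted p = 0.840). WT replicates 3 and 4, which were high in the other members apart from Dnd1 in replicate 3, were not high in Ybx2.

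**Figure D1:**
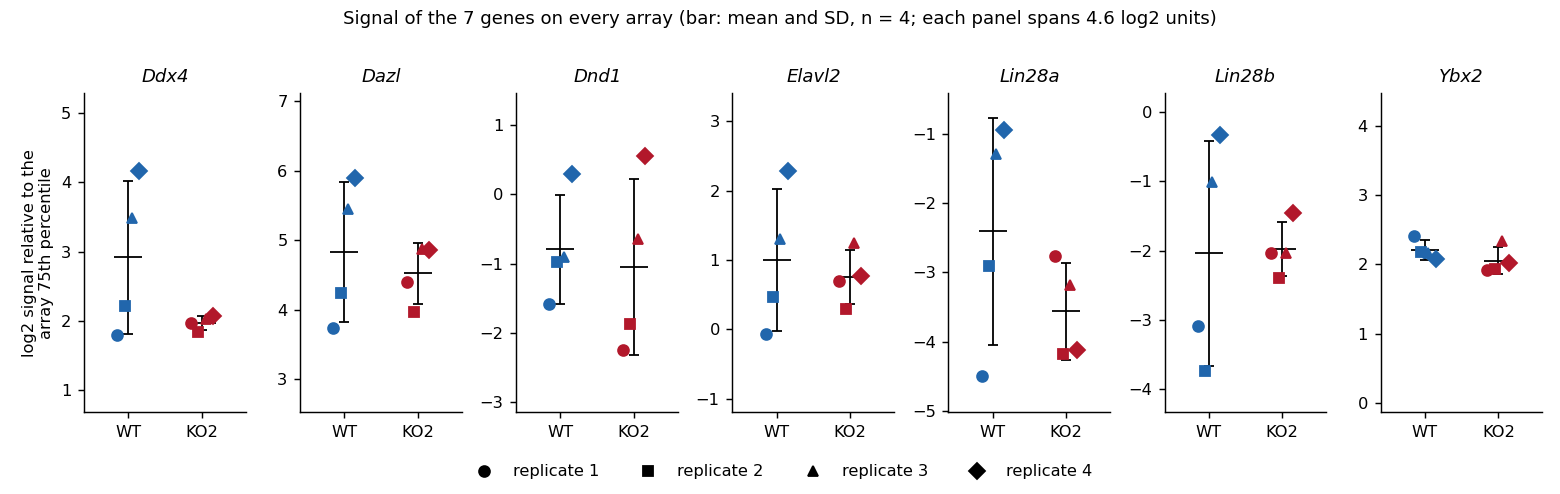
Log2 signal minus the 75th percentile of its array (vertical axis) for the 7 genes, with 1 symbol per replicate, WT in blue and Glis3KO2 (KO2) in red, and the mean with its SD (n = 4). Ddx4 spans 1.80 to 4.17 in WT and 1.84 to 2.07 in Glis3KO2, and Ybx2 stays within 1.92 to 2.42 on all arrays.

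Set against the genotype contrast as a whole, 0 of the 7 members passed at an adjusted p under 0.05, where 0 of 17508 genes (0%) did so by limma, and 0 of 7 had an unadjusted p under 0.05, where 1208 genes (6.90%) did. With the replicate number as a block, Ddx4 had an unadjusted p of 0.0487 by limma (adjusted p = 0.464), where 1108 genes were lower and 769 higher at an unadjusted p under 0.05. None of the 7 had groups that did not overlap, against 3.50% of all genes (2.60% lower and 0.902% higher in Glis3KO2). A lower mean in Glis3KO2 was seen for 6 of 7 members and for 59.2% of all genes, and the median difference was -0.25 over the members and -0.08 over all genes. The 95% intervals are wide, and a p that misses the threshold does not show that the genotypes are alike. On slide 1, which held replicates 1 and 3 of both genotypes, Ddx4 differed by -0.65, Dazl by 0.04 and Lin28a by -0.08, and on slide 2, with replicates 2 and 4, by -1.24, -0.66 and -2.22.

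The differences depended on WT replicates 3 and 4. Without both, an alternative chosen after seeing the data, Ddx4 was at -0.03 and Ybx2 at -0.25, while Dazl turned to 0.53, Elavl2 to 0.55, Dnd1 to 0.24 and Lin28a to 0.14, and Lin28b was at 1.43, the 1 member then with an unadjusted p under 0.05 (limma adjusted p = 1.0). Without WT replicate 4 alone Ddx4 was at -0.53 and Lin28a at -0.66, Lin28b was at 0.63, and Dazl (0.046), Elavl2 (0.18) and Dnd1 (0.11) turned. Without WT replicate 3 Dazl was at -0.10, Elavl2 at -0.14, Lin28a at -0.78 and Lin28b at 0.40. Without WT replicate 1 Dazl was at -0.67, Dnd1 at -0.52, Lin28a at -1.84, Elavl2 at -0.60 and Lin28b at -0.29, and without WT replicate 2 Dazl was at -0.51, Elavl2 at -0.42 and Lin28b at -0.50. Leaving out Glis3KO2 replicate 1, 2 or 4 put Dnd1 at 0.14, 0.02 and -0.79, and Lin28b at -0.11 without Glis3KO2 replicate 4. Without Glis3KO2 replicate 2 Dazl was at -0.12 and Elavl2 at -0.09, and without Glis3KO2 replicate 3 Elavl2 was at -0.41.

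**Figure D2:**
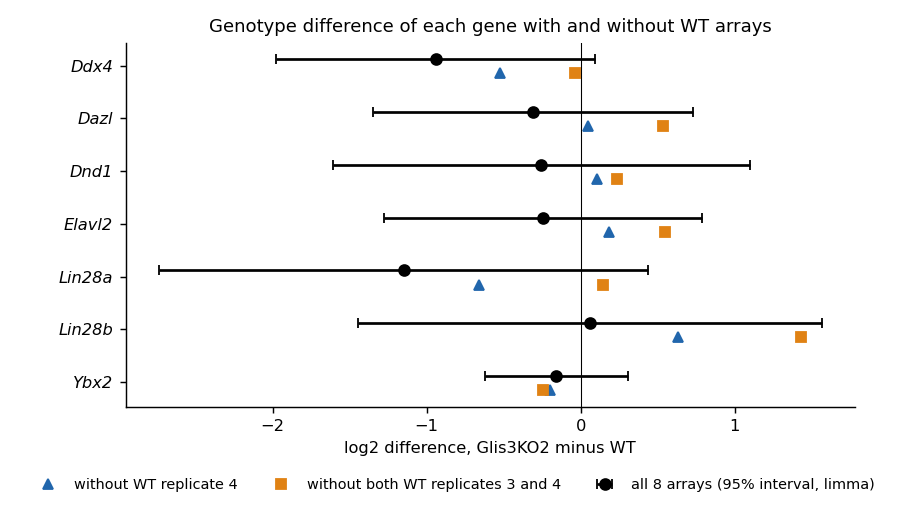
Log2 difference, Glis3KO2 minus WT (horizontal axis), of each gene over all 8 arrays with its 95% interval from limma, and without WT replicate 4 (blue triangles) or without both WT replicates 3 and 4 (orange squares). All 7 intervals include 0, and Ddx4 moves from -0.94 to -0.03 when both WT arrays are left out.

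As a gauge, each gene's log2 values were centred over the 8 arrays and averaged over the 7 members. Values of the gauge were -0.78, -0.39, 0.71 and 1.32 for WT replicates 1 to 4 and -0.33, -0.66, 0.06 and 0.07 in the Glis3KO2 replicates. The array's 75th percentile, in intensity units, was 355, 533, 243 and 272 in WT and 374, 458, 251 and 341 in Glis3KO2. It was lowest on replicates 3 and 4 of both genotypes, the arrays with the highest gauge. The part of this scaling in the order of the arrays was not tested. The extremes of the gauge were both WT arrays and lay 4.30-fold apart, whereas the Glis3KO2 arrays spanned 1.66-fold. WT arrays averaged 0.21 ± 0.97 and Glis3KO2 arrays -0.21 ± 0.35 (SD, n = 4 each), a difference of -0.43 that is smaller than the spread within WT. It was -0.10 on slide 1 and -0.76 on slide 2. Leaving out WT replicate 1, 3 or 4 gave -0.76, -0.26 and -0.06, leaving out Glis3KO2 replicate 2 gave -0.28, and without both WT replicates 3 and 4 it was 0.37. On WT replicate 3 all 7 members were above their own mean, on WT replicate 4 it was 6, and on Glis3KO2 replicate 2 it was 0. The SD was larger in WT than in Glis3KO2 for 5 of the 7 members, with Dnd1 and Ybx2 the other way, and for 58.2% of all genes.

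Other germ cell genes were also highest in WT replicates 3 and 4, but their lowest array was Glis3KO2 replicate 2 and not WT replicate 1. The mean of 29 other germ cell RNA regulators was -0.45, -0.24, 0.75 and 1.20 in WT and -0.48, -0.70, -0.04 and -0.05 in Glis3KO2. For 29 markers of germ cells outside RNA regulation it was -0.46, -0.23, 0.70 and 1.02 in WT and -0.38, -0.53, -0.05 and -0.07 in Glis3KO2. Stroma markers, a list that includes Thy1, ran the other way on WT replicates 3 and 4 and Glis3KO2 replicate 2, but not on WT replicate 1, the array with the lowest gauge. Their mean was lowest in WT replicates 3 (-1.01) and 4 (-1.19) and highest in Glis3KO2 replicate 2 (1.72), the array with the lowest gauge among the Glis3KO2 samples, and it was 0.79 in WT replicate 2, -0.57 in WT replicate 1 and 0.06 to 0.12 in the other Glis3KO2 arrays. The mean was higher in Glis3KO2 for all 12 stroma markers, of which 3 had an unadjusted p under 0.05 (background 2.15%) and 0 passed after adjustment, with a median difference of 0.94 against -0.08 for all genes. Without both WT replicates 3 and 4 the stroma median was 0.39 with 1 of 12 lower and 0 at an unadjusted p under 0.05. With the replicate number as a block 9 of 12 were higher at such a p, where 769 of 17508 genes were, against 377 without the block. The summed scaled signal of the stroma markers ranged from 38.4 to 169 in WT and from 93.6 to 345 in Glis3KO2. The type I collagen gene Col1a1 was at 1.41 (SE 0.61), the matrix protein gene Mgp at 0.91 (SE 0.39) and Mfap5, not well above background on 3 of 4 WT arrays, at 1.46 (SE 0.47). Among the 10 peritubular and smooth muscle markers, 10 were higher in mean, such as the intermediate filament gene Des at 1.39 (SE 0.52), Myocd at 1.60 (SE 0.70) and Acta2 at 0.76 (SE 0.34), and their summed signal was 33.6 to 103 in WT and 53.1 to 171 in Glis3KO2. For this list the median went from 1.01 to 0.34 without both WT replicates 3 and 4. The count at an unadjusted p under 0.05 went from 2 to 8 with the replicate block, where that of all genes higher went from 377 to 769. Macrophage markers were lowest in WT replicates 3 (-0.73) and 4 (-0.84) and lay between -0.42 and 0.62 on the other 6 arrays, with 9 of 11 higher in mean and summed signals of 17.1 to 54.5 in WT and 27.0 to 61.0 in Glis3KO2. That direction turned without both WT replicates 3 and 4, where 10 of 11 were lower and the median went from 0.31 to -0.38. Sertoli markers did not run opposite to the germ cells. A lower mean in Glis3KO2 was seen for 12 of 14 Sertoli markers, against 59.2% of all genes. Their list mean differed by -0.43, as the gauge did, but the 2 differed by slide. The Sertoli difference was -0.79 on slide 1 and -0.07 on slide 2, where the gauge difference was -0.10 and -0.76. The Sertoli mean reached 0.78 and 0.62 in WT replicates 3 and 4, and 0.68 on the fourth Glis3KO2 array. The Sertoli genes of smallest p were Clu at -0.94 (SE 0.43), Nr0b1 at -1.03 (SE 0.52) and Aard at -1.05 (SE 0.72). Leydig markers were highest in WT replicate 1 (1.37) and lowest in WT replicate 4 (-1.12). Median differences were 0.05 for 10 endothelial, 0.09 for 9 T cell and -0.53 for 5 red cell markers. Without both WT replicates 3 and 4 they were -0.24, -0.31 and -0.79, the Sertoli median went from -0.27 to 0.05 and the Leydig median from -0.16 to -0.58. The part of these other cells in the member differences was not tested.

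**Figure D3:**
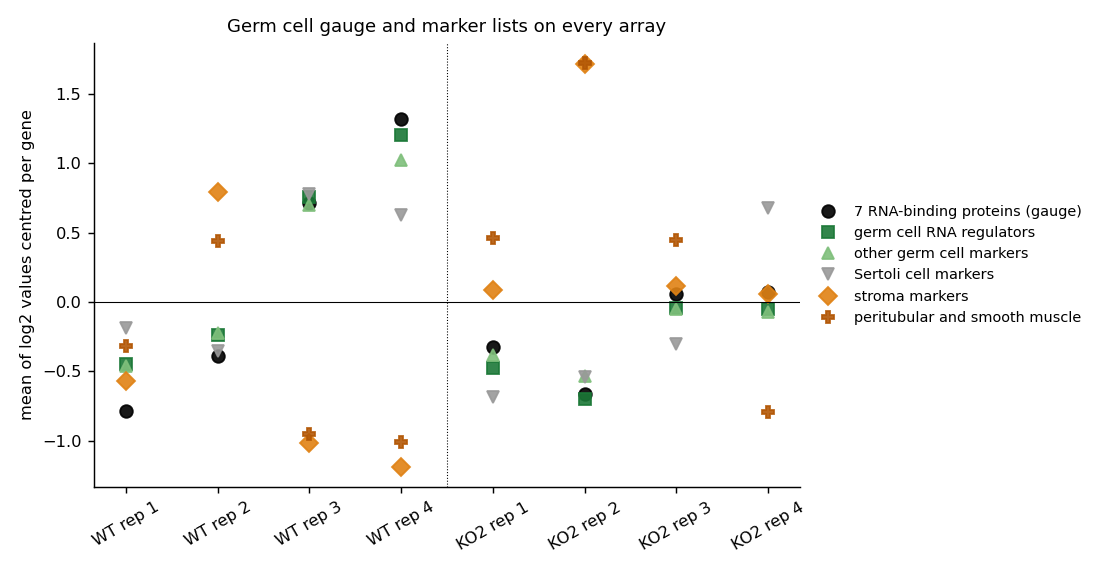
Mean of log2 values centred per gene (vertical axis) on each of the 8 arrays (horizontal axis; KO2 is Glis3KO2) for the 7 RNA-binding proteins and 5 marker lists. WT replicates 3 and 4 have the highest gauge (0.71 and 1.32) and the lowest stroma means (-1.01 and -1.19), and Glis3KO2 replicate 2 has the highest stroma mean (1.72).

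Although both genes varied over 4-fold among WT samples, the gap between Ddx4 and Dazl did not. Subtracting the Dazl value from the Ddx4 value of the same array gave -1.94, -2.03, -1.97 and -1.73 in WT, and -2.43, -2.12, -2.86 and -2.79 in Glis3KO2. Only the variation of this gap is meaningful, since its level depends on the probes. Every Glis3KO2 array lay below every WT array, with Glis3KO2 replicate 2 (-2.12) nearest to WT replicate 2 (-2.03). The gap averaged -1.92 ± 0.13 over WT arrays and -2.55 ± 0.34 over Glis3KO2 arrays (SD, n = 4 each), a difference of -0.63 (two-sided exact permutation p = 0.0286, the smallest that 70 labellings allow). It was lower in 4 of 4 numbered pairs, and it was -0.69 on slide 1 and -0.58 on slide 2. Of the 17501 genes that are no members, 39 (0.223%) were lower relative to Dazl in the same non-overlapping way. Without WT replicates 3 and 4 the difference was -0.57 (exact permutation p = 0.133, where 15 labellings allow no less than 0.0667). Without any 1 of the 4 WT replicates it was between -0.67 and -0.57 with an exact permutation p of 0.0571. With the second Dazl probe it was -0.54, and Glis3KO2 replicate 2 (0.2403) then lay just above WT replicate 2 (0.2389), so the groups overlapped (exact permutation p = 0.0571). Background correction by normexp with the 75th percentile gave -0.68 (exact permutation p = 0.0571), and the replicate number as a block gave p = 0.125, the smallest that an exact sign permutation of 4 pairs allows. The comparison was chosen with the differences of both genes known.

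Over all 21 pairs of members, 3 gaps had groups that did not overlap, and all 3 involved Ddx4. Relative to Elavl2, Ddx4 was at 1.87, 1.74, 2.18 and 1.89 in WT and 1.27, 1.55, 0.78 and 1.29 in Glis3KO2, a difference of -0.70. Relative to Lin28b it was at 4.89, 5.95, 4.50 and 4.50 in WT and 4.00, 4.24, 4.06 and 3.53 in Glis3KO2, a difference of -1.0. With the second probe of Elavl2 the difference was -0.48 (exact permutation p = 0.229) and with that of Lin28b it was -0.97 (exact permutation p = 0.114), and the groups overlapped in both, as they did with the second Dazl probe. This check was added after seeing the data. For each of the 3 pairs the exact permutation p was 0.0286, and with Benjamini-Hochberg adjustment over the 21 pairs it was 0.20. Seen from the other side, Dazl, Elavl2 and Lin28b were higher relative to Ddx4 in Glis3KO2 without overlap, as were 6.27% of all non-member genes. Dazl against Elavl2 differed between genotypes by -0.07 (exact permutation p = 0.571), and the Glis3KO2 values of that gap (3.64 to 4.08) lay within the WT values (3.62 to 4.15). Against the mean of the other 6 members, Ddx4 was higher in each WT array (0.16, 0.19, 0.38 and 0.47) than in each Glis3KO2 array (-0.18, 0.06, -0.56 and -0.52), and Dazl stayed within -0.18 and 0.16 on all 8.

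**Figure D4:**
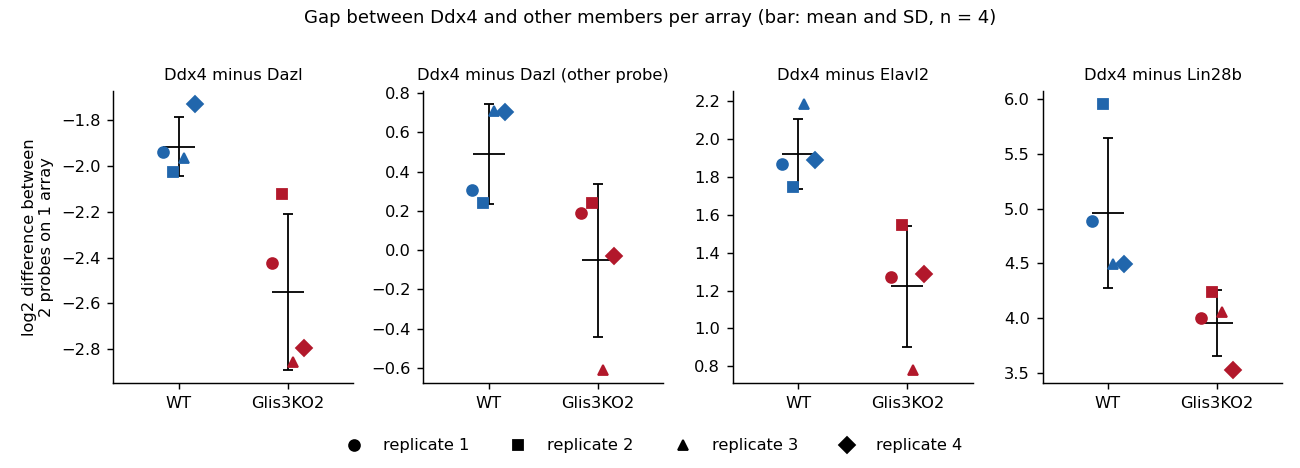
Log2 difference between the Ddx4 probe and a probe of another member on the same array (vertical axes differ in range), for both Dazl probes, Elavl2 and Lin28b, with 1 symbol per replicate and the mean with its SD (n = 4). The Glis3KO2 arrays lie below all WT arrays for the first Dazl probe, Elavl2 and Lin28b, and overlap them for the other Dazl probe.

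Of the 29 other germ cell RNA regulators measured, 25 had a lower mean in Glis3KO2, with a median difference of -0.71 against -0.08 over all genes. An unadjusted p under 0.05 with a lower mean was found for 12 of the 29, where 4.75% of all genes had one, and 0 of the 29 passed the adjusted threshold. Nanos3, which protects early germ cells from death, differed by -1.16 (SE 0.26), and Tdrd9, a helicase of the piRNA pathway, by -1.45 (SE 0.41). Piwil1, a PIWI protein that binds piRNAs, differed by -0.97 (SE 0.29) and the germ granule protein gene Tdrd6 by -0.63 (SE 0.20). Groups did not overlap for Nanos3, Piwil1, Tdrd6 and Rbm44 (background 2.60% lower). Without both WT replicates 3 and 4, 17 of 29 were lower in mean, with a median of -0.09. At an unadjusted p under 0.05, 1 was then lower and 3 were higher, against 411 and 359 of 17508 genes. The count lower was 5 without WT replicate 3 and 5 without WT replicate 4, where 448 and 539 of all genes were lower. It was 6 without Glis3KO2 replicate 1 and 5 without Glis3KO2 replicate 2, where 712 and 617 of all genes were. The Ddx4 difference of -0.94 was below the median of this list and the Dazl difference of -0.31 above it.

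With the gauge as a covariate beside genotype, a fit added after seeing the data that takes each gene's difference at equal gauge, the median of these 29 genes was -0.38. In that fit 11 of them were lower at an unadjusted p under 0.05 and 1 was higher, where 4.05% and 2.31% of 17501 genes were, and 0 genes passed the adjusted threshold (0%). Nanos3 stood at -1.01 (SE 0.22), Tdrd9 at -1.10 (SE 0.27) and Piwil1 at -0.76 (SE 0.23). The count lower, with the share over all genes in parentheses, was 4 with normexp and the 75th percentile (4.80%) and 6 without WT replicate 1 (2.51%). It was 7 without Glis3KO2 replicate 1 (3.99%) and 5 without Glis3KO2 replicate 4 (3.97%). Without both WT replicates 3 and 4 it was 3 (1.78%), where the median was -0.43. For the 29 other germ cell markers the median went from -0.53 to -0.18 and 5 were lower at an unadjusted p under 0.05 in either fit, with 0 higher without the gauge and 2 higher with it. Without both WT replicates 3 and 4, and without the gauge, their median was 0.05, with 14 of 29 lower in mean. At an unadjusted p under 0.05, 4 were then lower and 3 higher, against 411 and 359 of 17508 genes. Tfap2c, an AP-2 transcription factor of early germ cells, was at -1.61 (SE 0.25) without the gauge and -1.56 (SE 0.26) with it (limma adjusted p = 0.492 and 0.420), and the nuclear receptor gene Esrrb at -1.76 (SE 0.34) and -1.72 (SE 0.37). Bcl6b, a transcriptional repressor of stem spermatogonia, was at -1.37 (SE 0.34) and -1.18 (SE 0.31). The stroma median went from 0.94 to 0.67.

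**Figure D5:**
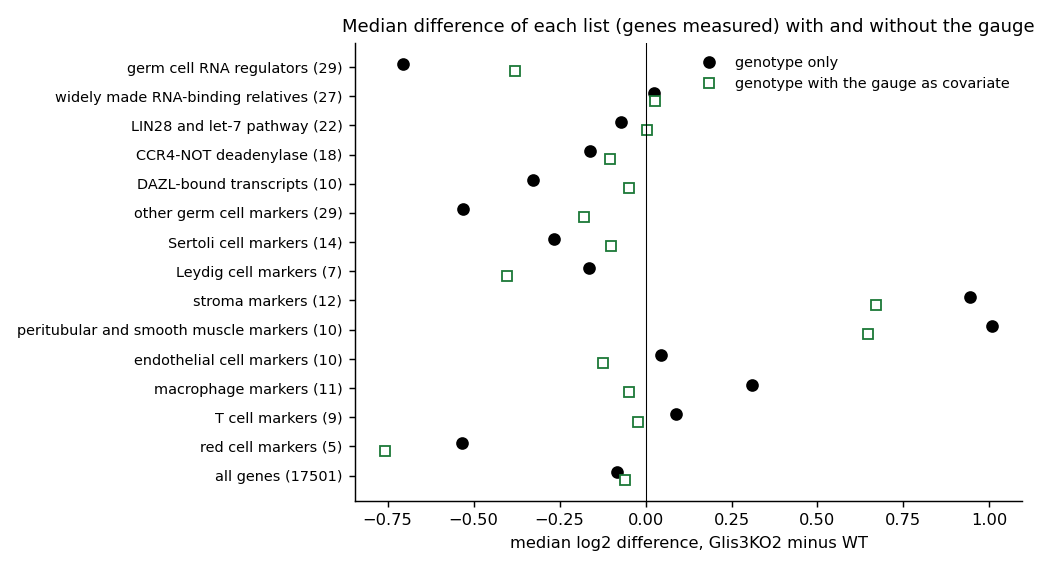
Median log2 difference, Glis3KO2 minus WT (horizontal axis), of 14 gene lists and of all genes, from the fit with genotype only (filled circles) and with the gauge as a covariate (open squares); the number of genes measured is in parentheses. The germ cell RNA regulators move from -0.71 to -0.38 and the other germ cell markers from -0.53 to -0.18.

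Genes that work with the members were also read. DND1 and NANOS2 rely on the CCR4-NOT deadenylase. The list under that name also holds Pan2, Pan3 and Parn, which belong to other deadenylases. It had 12 of 18 genes with a lower mean, against 59.2% of all genes, and a median of -0.16. Without both WT replicates 3 and 4, 9 of 18 were lower and the median was -0.02. Of the 18 genes over all arrays only Tob2, an anti-proliferative adaptor of the complex, had an unadjusted p under 0.05. It was at 0.99 (SE 0.24) with non-overlapping groups (background 0.902% higher), and 0 of the 18 passed the adjusted threshold. In the LIN28 and let-7 list 12 of 22 had a lower mean, with a median of -0.07 (-0.15 without both WT replicates 3 and 4) and 0 at an unadjusted p under 0.05. There Hmga1, a chromatin protein, differed by -0.52 (SE 0.24), Tarbp2, a partner of Dicer, by -0.74 (SE 0.38) and Drosha, which cuts primary microRNAs, by -0.59 (SE 0.30). Of 11 messages listed as bound by DAZL, Ddx4 among them, 10 had a lower mean, against 59.2% of all genes. The list is not separate from the others. Sall4, Taf4b, Tex11, Tex14, Tex15 and Hormad1 are also among the other germ cell markers. Tex19.1 is also a germ cell RNA regulator here, and Cdc25a is on the LIN28 list. The median of the 11 was -0.35. With the gauge as a covariate and Ddx4 left out, 6 of 10 were lower, as were 9946 of 17501 genes, and the median was -0.05. Without the gauge, and without both WT replicates 3 and 4, the direction turned, with 3 of 11 lower and a median of 0.25. Over all arrays the germ cell gene Tex19.1 was at -0.71 (SE 0.39), and Pam, an enzyme that amidates peptides, differed by 1.07 (SE 0.38). Among 27 widely made relatives, 14 had a higher and 13 a lower mean, with a median of 0.02. Ybx3, a cold-shock domain relative of Ybx2, was at 0.71 (SE 0.22) with non-overlapping groups, Tia1, a stress granule protein, at 0.65 (SE 0.26), and Elavl3, a neuronal relative of Elavl2 with 1 of 4 Glis3KO2 arrays well above background, at -0.88 (SE 0.36). None of these genes passed over all genes (limma adjusted p = 0.697 for each one named here).

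Likeness was measured as the root mean square difference of centred log2 values over the 8 arrays, which all genes share. The 6 genes nearest to Ddx4, members aside, were Scml2 (0.19), Ott (0.19), Mael (0.20), Stk31 (0.23), Eif5a2 (0.23) and Uchl1 (0.23), against a median of 0.85 over all genes. Mael acts in the piRNA pathway, Stk31 is a tudor domain kinase, Scml2 is a Polycomb-type protein of the germ line, and Uchl1, a deubiquitinase, is used as a marker of spermatogonia. For Dazl they were Taf7l (0.14), Nanos1 (0.15), Nol8 (0.18), Sycp1 (0.19), Rbmy (0.21) and Ddx10 (0.21), against a median of 0.74. Taf7l is a germ cell relative of a general transcription factor subunit, and Sycp1 forms part of the synaptonemal complex. Ott and Rbmy belong to families of near-identical copies, so their probes may read several genes. The 6 genes nearest to Ddx4 differed between genotypes by -1.22 to -0.73, and the 6 nearest to Dazl by -0.32 to -0.08, which the choice by likeness over the same arrays largely fixes. Between Ddx4 and Dazl the value was 0.39. Of 17501 non-member genes, 109 were nearer to Ddx4 than Dazl was, and 352 were nearer to Dazl than Ddx4 was.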

How the data were processed

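Per the file headers, the scanner output came from Agilent Feature Extraction, version 12.0.0.7. The deposited files hold, per spot, a background-subtracted and detrended intensity, with median spot and background intensities and flags of 0 or 1 (other values) for spots well above background, saturated or outlying. Per the labels' protocols, RNA was amplified with the Ovation Pico WTA system and labelled with Cy3. The deposited value table equalled the processed intensity on 100% of spots.

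Log2 of the processed signal minus the array's 75th percentile was used, without control and outlier spots. A probe was kept if 4 or more of 8 arrays had it well above background (36415 probes), and 28223 of 41174 probes were named through RefSeq accessions of GRCm38.p6. The brightest probe stood for its gene (17508 genes); second probes were read from a fit over all kept probes. Genotype was tested with limma 3.58.1 in R 4.3.3 and Benjamini-Hochberg adjustment, checked on simulated data. The simulated noise was independent between genes and arrays and of equal SD in both groups. The check therefore does not cover variation that genes share on an array, or unequal SDs, both seen here. The number of arrays limits the precision. The design text names 3 testes per genotype, the labels 4 samples.

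The members, lists and tests were chosen with earlier results of these data known. Named genes were the members, the 3 of smallest p in each list (4 for germ cell RNA regulators), not all printed, and the 6 most like Ddx4 or Dazl; Rbm44 and genes of count sentences were added after their values were seen. WT arrays held positions 1 and 2 and Glis3KO2 arrays 3 and 4 of each slide, so position and genotype cannot be told apart. Replicates 3 and 4 were the arrays at position 2 in WT and at position 4 in Glis3KO2. Within a genotype, position and the split of replicates 3 and 4 from 1 and 2 therefore cannot be told apart either. Same-numbered samples deviated together (r = 0.16, 0.34, 0.18 and 0.13 across genes), as did WT 3 with Glis3KO2 4 (0.14) and WT 4 with Glis3KO2 3 (0.12), so the replicate number was also tried as a block. Alternatives were normexp (offset 50, on median signals), quantile normalization, filters, probe rules, blocks, array weights and arrays left out.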

Additional observations from a re-analysis of the deposited data

Results flagged for a closer look

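The dimmer Lin28b probe (A_52_P532355) had 1 array apart from the rest of its group. Glis3KO2 replicate 2 was at -4.47 on the log2 scale, where the other 3 Glis3KO2 arrays were at -2.64, -2.84 and -2.66. The gap to the nearest was 0.893 of the group's range, above Dixon's 95% critical value of 0.829 for 4 samples. On the brighter Lin28b probe the same array was at -2.40 and did not stand apart. Of 24 groups of 4 examined, over the 10 probes, the gauge and the gap between Ddx4 and Dazl, 1 exceeded the limit, and chance gives about 1 in 20.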

How the results depend on the processing

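No member passed an adjusted p of 0.05 by limma under any alternative, and Ddx4 and Ybx2 kept a negative sign in 19 of 19. Normexp with the 75th percentile gave Lin28b -0.68, Dazl -0.041, Elavl2 -0.16, Ybx2 -0.0077 and the gap between Ddx4 and Dazl -0.68 (exact permutation p = 0.0571), and moved the median of all genes from -0.08 to -0.23. Normexp with quantile normalization gave Lin28b -0.16, Lin28a -0.51 and Dnd1 -0.10, and array weights gave Lin28b -0.47, Dazl -0.60, Elavl2 -0.48 and Dnd1 -0.53. Quantile normalization of the log2 signal called 1 gene (Gm16702, adjusted p = 0.0252) where 0 were called otherwise. Without both WT replicates 3 and 4, chosen after seeing the data, Dazl was at 0.53, Dnd1 at 0.24, Elavl2 at 0.55, Lin28a at 0.14, the gauge at 0.37 and the gap at -0.57. At that setting 1 of 29 germ cell RNA regulators was lower at an unadjusted p under 0.05, as were 411 of 17508 genes. The second Dazl probe gave a gap of -0.54. Under the replicate block the gap was -0.63 (exact permutation p = 0.125, the smallest that test allows). By limma 0 genes passed the adjusted threshold with or without that block.

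Leaving out 1 array at a time, Dazl ranged from -0.67 to 0.046, Dnd1 from -0.79 to 0.14, Elavl2 from -0.60 to 0.18, Lin28b from -0.50 to 0.63 the gauge from -0.76 to -0.06 and the gap from -0.78 to -0.53. Over the same settings 5 to 17 germ cell RNA regulators were lower at an unadjusted p under 0.05, as were 448 to 1601 of all 17508 genes. The causes of these shifts were not tested. Signal over background limits Lin28a and Lin28b.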

Other observations

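At equal gauge 0 genes passed the adjusted threshold by limma, where 709 were lower and 405 higher at an unadjusted p under 0.05 (smallest adjusted p 0.182). The following genes of the lists were chosen after their values were seen. Cpeb1, a cytoplasmic polyadenylation factor, was at 0.80 (SE 0.26) with the gauge as a covariate and 0.24 without it. Rhox13, a germ cell homeobox gene, was at 0.67 (SE 0.26) and 0.28, and Mycn at 0.75 (SE 0.22) and 0.36. The fitted slopes on the gauge were 1.30, 0.92 and 0.90 log2 units per unit of gauge for Cpeb1, Rhox13 and Mycn (adjusted p of the slope 0.0664, 0.0878 and 0.0695 by limma).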
